A study of Mus musculus with 6 samples.

Results

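Each of the 204 genes described here had a probe that the array scanner called well above background in every wild-type dish of mouse embryonic stem cells. The same probe was called so in no dish of cells lacking Tet1, Tet2 and Tet3. For 42 of the genes, another probe was called well above background in every dish of those cells. The 204 genes were chosen by a rule on the signals themselves. A probe had to carry the scanner's flag for a signal well above background on all 3 WT arrays and on 0 of the 3 TKO arrays. Its mean log2 signal also had to be at least 2 lower in TKO than in WT, and each gene was then represented by the brightest such probe. The rule found 244 probes for 204 of 34650 gene names on the array, which is 0.99% of the 20614 genes with a probe well above background on all WT arrays. Because these values chose the members, their levels in TKO and WT are given as a description, with no test.

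RNA was measured on 6 one-colour Agilent arrays, 1 for each dish. The TKO group is 3 dishes of embryonic stem cells in which Tet1, Tet2 and Tet3 are knocked out, derived from the line BJ FF2 ES, and the WT group is 3 dishes of BJ FF2 ES itself. Culture ran in parallel for both groups, with 2i medium and a layer of mouse embryonic feeders, and the cells were then moved to feeder-free matrigel before RNA was taken from 1 dish per sample. The dishes share 1 parental line and the labels name no separate TKO clones, so p-values measure only the spread between dishes and hold none between clones. The altered exons are not given in the sources used here, so a Tet probe may lie outside the altered part and then checks nothing.

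Tet1, Tet2 and Tet3 encode dioxygenases that oxidise 5-methylcytosine in DNA to 5-hydroxymethylcytosine and further products, the first steps of one route by which methyl groups are lost from CG dinucleotides. Methylation of a promoter rich in CG dinucleotides is commonly associated with a silent gene, and many germline and imprinted genes are controlled in this way. Cells kept in 2i medium are known for low levels of DNA methylation.

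Every value below is a log2 processed signal minus the 75th percentile of its array, so 0 is a signal brighter than that of 3 in 4 probes. The brightest probes of Tet1 and Tet2 were lower in TKO, but every probe of both genes stayed well above background on all TKO arrays. The dimmest Tet2 probe averaged -1.65 in TKO and -1.19 in WT. The brightest Tet1 probe read 2.61, 2.70 and 2.64 in the TKO dishes, against 4.03, 4.09 and 4.01 in the WT dishes. The brightest Tet2 probe read 1.03, 1.18 and 1.14 in TKO, against 4.07, 4.05 and 4.12 in WT. The brightest Tet3 probe read -1.90, -1.67 and -1.85 in TKO, against -1.39, -1.59 and -1.66 in WT. All 10 embryonic stem cell markers checked were well above background on all arrays of both groups. Their summed level was 839 to 910 on the linear scale in TKO and 1120 to 1190 in WT, and Zfp42, a marker of the naive state, fell by 4.09 on the log2 scale (limma adjusted p = 9.7e-07). Trophoblast markers summed to 21.9 to 23.1 in TKO and 12.4 to 12.8 in WT, and primitive endoderm markers to 1.79 to 2.0 in TKO and 3.44 to 3.6 in WT. A sum follows its brightest genes, and single markers went both ways. Limma called the brightest trophoblast marker, Tfap2c, higher (0.87), with Cdx2 (3.19), Hand1 (2.26) and Krt7 (1.94), and Eomes lower (-0.77). It called the endoderm markers Hnf4a (-4.29), Sox17 (-0.57) and Gata4 (-0.22) lower and Sox7 (1.23), Gata6 (0.78) and Dab2 (0.74) higher. Fibroblast markers, which feeder cells express, summed to 78.8 to 82.1 on the linear scale in TKO and 50.3 to 51.2 in WT. In a longer feeder list with 20 tested genes, limma called 2 lower, among them Pdgfrb (-2.29). It called 12 of the 20 higher, among them Acta2 (1.18) and Tagln (0.94). Over all tested genes, 31.9% were called lower and 28.3% higher. The part of other cell types or states, or of carried-over feeder RNA, in any result was not tested. Array TKO1 shared a slide row with the WT arrays, and TKO2 and TKO3 lay in another row with a higher background. The lowest signal called well above background was -4.96 on TKO1, -4.06 on TKO2 and -4.19 on TKO3.

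Of the 204 members, 89 carried a gene symbol, 65 were long intergenic RNAs named by their position, 34 were predicted, locus or Riken genes and 16 were other transcripts or unnamed probes. RefSeq matched 108 of them, 92 as protein coding, 12 as long non-coding RNA and 4 as transcribed pseudogenes. The intergenic RNAs have no other name in the files, so the 60-base probes of the 3 with the largest lower bound of the fold in TKO are shown, with their positions on mouse build mm9. They lie at chr13:19617464-19617523 on the minus strand, chr13:31760415-31760474 on the minus strand and chr12:110986389-110986448 on the plus strand, in that order, and no base is capitalised because no motif is marked.

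First chromosome 13 RNA: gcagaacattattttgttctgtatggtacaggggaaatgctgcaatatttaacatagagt
Second chromosome 13 RNA: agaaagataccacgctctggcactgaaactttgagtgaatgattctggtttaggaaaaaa
Chromosome 12 RNA: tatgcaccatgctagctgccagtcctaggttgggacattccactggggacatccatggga

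The promoters of 4 members show how different the starts of these genes are. RefSeq promoters on build GRCm38.p6, from 250 bases before to 50 after the start, were held for 77 members, and CG dinucleotides, the sites that Tet enzymes and DNA methyltransferases act on, are in capitals. Where a gene had several promoters, only the promoter with the most CG was taken, which need not be the start used in these cells. The defensin genes Defa23 (chr8:21054790-21055089, plus strand) and Defa2 (chr8:21378267-21378566, plus strand) have 1 CG each. The corepressor gene Skor1 (chr9:63148912-63149211, minus strand) has 46 and the chemokine gene Ccl25 (chr8:4324960-4325259, plus strand) has 52.

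Defa23: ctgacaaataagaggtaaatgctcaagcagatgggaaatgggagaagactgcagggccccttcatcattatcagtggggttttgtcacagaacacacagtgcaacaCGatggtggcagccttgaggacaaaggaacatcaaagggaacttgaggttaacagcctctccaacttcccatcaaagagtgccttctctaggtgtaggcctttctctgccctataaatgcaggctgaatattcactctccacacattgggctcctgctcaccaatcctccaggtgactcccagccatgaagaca
Defa2: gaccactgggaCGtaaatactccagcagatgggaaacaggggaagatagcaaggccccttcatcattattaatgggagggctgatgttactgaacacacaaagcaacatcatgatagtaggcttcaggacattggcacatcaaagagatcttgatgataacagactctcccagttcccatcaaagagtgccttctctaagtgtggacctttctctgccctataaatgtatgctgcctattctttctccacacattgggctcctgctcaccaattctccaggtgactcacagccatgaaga
Skor1: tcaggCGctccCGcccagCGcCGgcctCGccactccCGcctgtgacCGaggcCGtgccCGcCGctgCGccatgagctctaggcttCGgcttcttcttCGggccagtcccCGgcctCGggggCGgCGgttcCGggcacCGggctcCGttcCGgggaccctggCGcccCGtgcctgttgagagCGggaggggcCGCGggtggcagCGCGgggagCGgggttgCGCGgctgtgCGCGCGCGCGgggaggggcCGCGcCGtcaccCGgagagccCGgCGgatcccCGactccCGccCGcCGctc
Ccl25: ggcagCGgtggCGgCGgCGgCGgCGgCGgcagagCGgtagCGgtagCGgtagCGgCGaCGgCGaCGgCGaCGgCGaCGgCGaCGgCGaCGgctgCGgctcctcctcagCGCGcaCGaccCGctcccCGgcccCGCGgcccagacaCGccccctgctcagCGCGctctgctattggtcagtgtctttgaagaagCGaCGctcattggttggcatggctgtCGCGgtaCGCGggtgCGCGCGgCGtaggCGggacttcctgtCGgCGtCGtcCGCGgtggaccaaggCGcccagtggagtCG

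The members were not "silent" in the strict sense. Their own probes were also flagged by the scanner as positive and significantly above local background on all 3 TKO arrays in 61 members, on 2 arrays in 53, on 1 in 55 and on 0 in 35. The well-above-background flag is the stricter of the 2 flags, so a member's own probe gave no measured level in TKO, only an upper limit. Each size is therefore a lower bound. It sets the WT mean against the TKO mean in which each array counts at the lowest signal called well above background there, or at the probe's own signal where that is higher.

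The bound was at least 2-fold in 122 members, at least 4-fold in 50 and at least 8-fold in 15, and its median was 2.24-fold. The other 82 members had a bound under 2-fold, and among these Foxd2os, a noncoding RNA beside the forkhead gene Foxd2, had none above 1. The members were dim already in WT. Their WT means ran from -4.41 to 1.74 with a median of -3.24, against a median of 0.47 for all genes well above background in WT, and 2 members were above that. Their TKO means ran from -6.70 to -4.36. The measured differences, TKO minus WT, ran from -7.67 up to the threshold with a median of -2.64. The spread among WT dishes was small, with a median SD of 0.16, and exceeded 0.5 in 8 members. One of the 8 was Foxd1, a forkhead transcription factor, which read -6.03, -6.17 and -6.29 in TKO and -3.50, -1.10 and -3.32 in WT, where WT2 alone was bright.

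**Figure D1:**
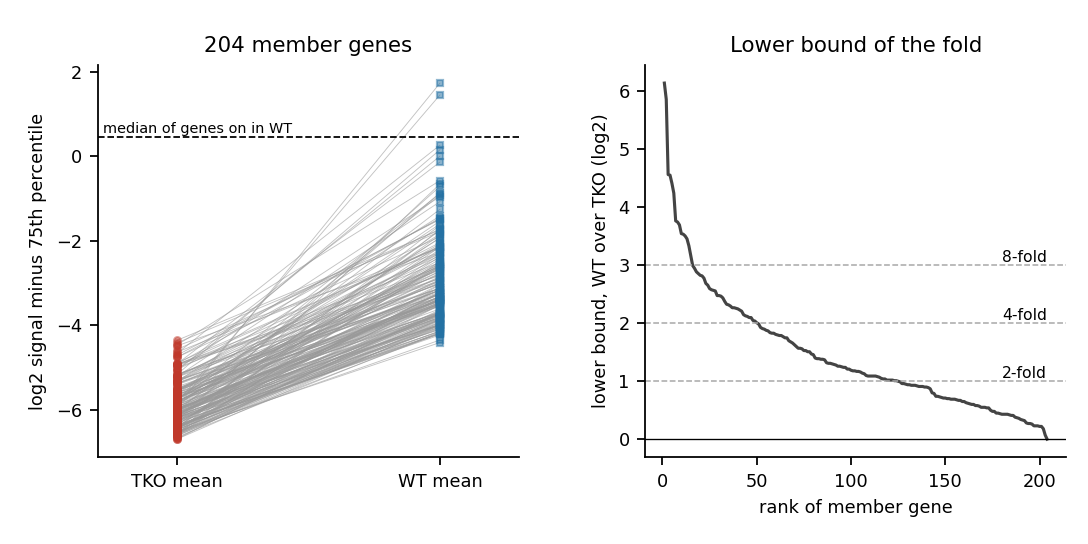
Left, mean log2 signal minus the 75th percentile of each of the 204 members in TKO (circles) and WT (squares), joined by a line per gene, with the median WT level of all genes well above background in WT (0.47) dashed. Right, the lower bound of each member in order of size, on a log2 scale, with 122, 50 and 15 members at or above the dashed lines for 2-, 4- and 8-fold.

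Members just inside the threshold were close to those just outside it. The zinc finger gene Zfp69 (-2.001), an intergenic RNA on chromosome 15 (-2.002) and another on chromosome 8 (-2.003) entered, and a second probe of BRN1-A (-1.999), C030037D09Rik (-1.998) and Gm6432 (-1.994) did not. That BRN1-A probe has the same 60 bases as the probe by which Pou3f3os entered, so 1 sequence fell on both sides.

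Secreted peptides and cell surface ligands made up 7 of the 24 members with a symbol and the largest bounds. Alpha-defensins, the antimicrobial peptides of intestinal Paneth cells, gave 4 of them. Defa3 read -6.97, -6.13 and -5.49 in TKO, against -0.90, -0.82 and -0.86 in WT, at least 11.7-fold lower in TKO. Defa23 read -6.07, -6.23 and -6.36 in TKO, against -2.04, -2.30 and -1.95 in WT, at least 4.94-fold lower in TKO. The WT dishes lay close together for both genes, and every TKO value lay below the lowest signal called well above background on its array.

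Defa2 read -7.18, -6.26 and -6.39 in TKO, against -2.59, -2.40 and -2.47 in WT, at least 3.77-fold lower in TKO. Defa1 read -6.67, -6.28 and -6.42 in TKO, against -2.59, -2.52 and -2.64 in WT, at least 3.53-fold lower in TKO. These 2 were about equally dim in WT, and dimmer there than Defa3. The secretoglobin gene Scgb1c1, of a family of small secreted proteins, read -5.15, -5.74 and -6.37 in TKO, against -1.68, -1.32 and -1.59 in WT, at least 7.34-fold lower in TKO. Ccl25, a chemokine of thymus and small intestine, read -4.46, -4.40 and -4.40 in TKO, against -1.83, -1.79 and -1.71 in WT, at least 5.51-fold lower in TKO with this probe. H60b, a ligand of the natural killer cell receptor NKG2D, read -6.32, -6.01 and -6.14 in TKO, against -2.25, -2.52 and -2.51 in WT, at least 3.93-fold lower in TKO.

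Receptors and other membrane proteins were the next group. Dcstamp, a transmembrane protein that osteoclast precursors need in order to fuse, had the largest bound of any member with a symbol. It read -5.09, -4.73 and -5.41 in TKO, against -0.01, -0.02 and 0.06 in WT, at least 21.3-fold lower in TKO. Gpr133, an adhesion G-protein-coupled receptor now named Adgrd1, read -4.70, -4.34 and -4.37 in TKO, against -0.52, -0.66 and -0.55 in WT, at least 13.4-fold lower in TKO. Gpr126 (now Adgrg6), a receptor of the same family that Schwann cells need for myelination, read -4.73, -4.65 and -4.89 in TKO, against -2.06, -1.85 and -1.80 in WT, at least 5.38-fold lower in TKO. The probes of these 3 receptors were positive and significant on all TKO arrays, so a faint TKO signal remained in each.

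Mall, a MAL-family proteolipid of membrane rafts, read -5.32, -6.25 and -6.11 in TKO, against -2.29, -2.12 and -1.37 in WT, at least 5.56-fold lower in TKO. Pcdhga1, a clustered protocadherin of the cell surface, read -5.17, -4.27 and -4.47 in TKO, against -2.12, -2.05 and -2.27 in WT, at least 4.79-fold lower in TKO. Tmem117, a transmembrane protein, read -5.55, -3.99 and -6.07 in TKO, against -2.47, -2.16 and -2.41 in WT, at least 4.09-fold lower in TKO. The TKO dishes differed most from each other in Tmem117, where TKO2 was the high one.

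Enzymes and structural proteins followed. Pla2g4e, a member of the cytosolic phospholipase A2 family, read -6.94, -6.11 and -6.26 in TKO, against -1.64, -1.60 and -1.66 in WT, at least 6.83-fold lower in TKO. Myot encodes myotilin of the muscle Z-disc and read -6.83, -5.97 and -6.09 in TKO, against -1.75, -1.70 and -1.81 in WT, at least 6.29-fold lower in TKO. Both probes were positive and significant on 0 TKO arrays, and the WT dishes hardly differed from each other. Usp44, a deubiquitinase of the mitotic checkpoint, read -4.69, -4.68 and -4.78 in TKO, against -1.43, -1.55 and -1.49 in WT, at least 7.08-fold lower in TKO. Nuf2, a subunit of the Ndc80 kinetochore complex, read -5.43, -6.10 and -5.34 in TKO, against -1.82, -1.94 and -1.77 in WT, at least 5.9-fold lower in TKO. For both mitotic genes another probe was well above background on all TKO arrays, nearly level for Nuf2 and higher in TKO for Usp44. The rule therefore does not describe the whole of either gene, though a further Nuf2 probe was lower in TKO as well.

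Zmynd10, a factor for the assembly of ciliary dynein arms, read -5.72, -6.28 and -5.46 in TKO, against -2.81, -2.26 and -2.55 in WT, at least 3.64-fold lower in TKO. Ccm2l, a relative of the vascular gene Ccm2, read -5.06, -4.57 and -6.43 in TKO, against -2.44, -2.42 and -2.02 in WT, at least 4.32-fold lower in TKO. Prune2 read -4.82, -4.39 and -4.25 in TKO, against -2.26, -2.39 and -2.15 in WT, at least 4.26-fold lower in TKO. In these genes, as in all 204 members, the lowest WT value stood above the highest TKO value. The flags and threshold of the rule largely build this separation in.

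Nuclear proteins closed the set of 24. Skor1, a corepressor of the Ski family, read -5.54, -5.70 and -4.68 in TKO, against -2.05, -2.27 and -2.15 in WT, at least 4.75-fold lower in TKO. Zbtb7c, a BTB zinc finger factor, read -5.02, -5.98 and -4.95 in TKO, against -2.41, -2.54 and -2.25 in WT, at least 4.01-fold lower in TKO. Xlr5a, of an X-linked family related to a synaptonemal complex protein, read -5.65, -5.90 and -5.69 in TKO, against -2.80, -2.52 and -2.42 in WT, at least 3.54-fold lower in TKO. Rsrc2, a protein rich in arginine and serine, read -4.99, -5.18 and -4.64 in TKO, against -2.56, -2.24 and -2.74 in WT, at least 3.71-fold lower in TKO. A second Skor1 probe was also well above background in WT only, at a mean of -4.97 in TKO and -2.63 in WT.

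**Figure D2:**
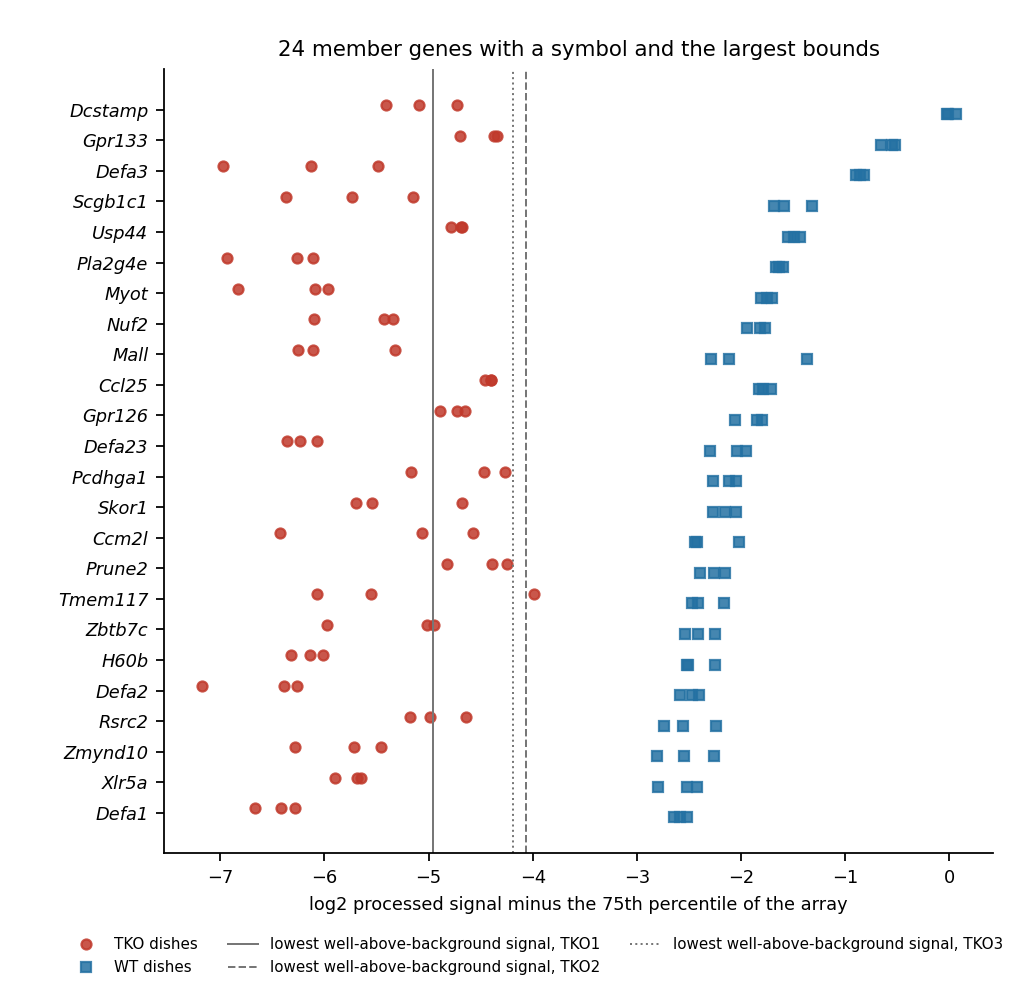
Log2 signal minus the 75th percentile of the array for the 24 members with a symbol and the largest bounds, 1 row per gene, TKO dishes as circles above WT dishes as squares. Vertical lines are the lowest signals called well above background on TKO1 (-4.96), TKO2 (-4.06) and TKO3 (-4.19), and every WT value lies to the right of all 3.

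The other 65 members with a symbol had bounds from 3.48-fold (Synpo) down to 1.04-fold (Zfp560), with Foxd2os below that. They included the transcription factors Foxd1, Hsf4, Ppara, Hoxc11, Nkx6-3, Zbtb38, Zfp69 and Zfp560, and the noncoding RNAs TSIX (antisense to Xist) and Pou3f3os. Genes of channels, transporters and their relatives were Abcc2, Asic2, Cftr, Gabra2, Kcnh6, Slc10a6 and Slc12a5. Receptors and signalling genes were Adrb1, Il27ra, Ly75, Gna14, Mras, Ppp3cc, Rgs22, Ptprv, Dock10, Guca2a, Nxph4 and Lgi3, and chemosensory genes were Vmn1r216, Vmn1r44, Olfr965 and Rtp3. Genes known from germ cells were Tdrd9, Msh4, Prm1, Spesp1, Nlrp4a and Xlr5c. Genes of epithelia and of secreted or metabolic proteins were Muc1, Muc2, Upk3a, Sftpd, Fgl2, Cyp2b10, Cyp2c68 and Adhfe1. Others were BRN1-A, DXBay18, Defa26, Defa-ps1, Ulbp1, Tnnc1, Popdc2, Adam23, Synpo, Anapc11, Wdfy4, Plekhs1, Zbbx, Rfesd, Pabpc6 and Ccdc37.

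Among members without a symbol, chosen for naming after their values were seen, the first chromosome 13 RNA printed above had the largest bound of all. It read -5.86, -5.90 and -6.02 in TKO, against 1.61, 1.86 and 1.74 in WT, at least 70.7-fold lower in TKO. The second chromosome 13 RNA read -5.70, -5.51 and -6.27 in TKO, against 1.44, 1.57 and 1.37 in WT, at least 58.2-fold lower in TKO. These were the 2 members brighter in WT than the median of genes well above background there. Gm13128, a predicted gene on chromosome 4, read -4.56, -4.79 and -4.66 in TKO, against 0.13, 0.37 and 0.33 in WT, at least 23.4-fold lower in TKO. The RNA read from the opposite strand of the second locus was a member too, at -7.12, -6.27 and -6.39 in TKO and -0.58, -0.69 and -0.68 in WT, at least 13.5-fold lower in TKO. Next to the first locus, limma called Epdr1 (-1.54) and Sfrp4 (-1.42) lower, while Stard3nl (0.04) and 9330199G10Rik (-0.12) did not pass its test.

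Some members lay in groups along the chromosomes, but the same share was not computed for other genes on in WT. Some of these groups are 1 locus read by more than 1 probe or on both strands. By the array's mm9 positions, 46 of the 199 members with a position lay within 250 kb of another member, in 13 groups, and 7 groups held 3 or more members. The largest was the imprinted Dlk1-Meg3-Dio3 region, where long noncoding RNAs and microRNA precursors are made from the maternal chromosome. Between 110750107 and 110986448 on chromosome 12, 10 members were found, 9 intergenic RNAs and 6430411K18Rik, with bounds of 1.34- to 18.9-fold. 6430411K18Rik, a noncoding transcript, averaged -6.37 in TKO and -2.20 in WT. The chromosome 12 RNA printed above read -4.85, -5.15 and -4.75 in TKO, against 0.00, -0.28 and -0.09 in WT. Other probes of the same RNA did not all follow, and its brightest averaged 1.22 in TKO and 1.01 in WT. A probe of a member RNA on the minus strand of the region averaged -1.17 in TKO and -1.54 in WT. Some transcripts of the region that were not members were lower in TKO while still measured there. In the limma fit over 21546 genes, in which 31.9% of genes were called lower and 28.3% higher at an adjusted p under 0.05, the maternally expressed noncoding RNA Meg3 differed by -3.17 (adjusted p = 3.63e-06). Lower calls were 53.0% of all calls, and 70.7% with arrays centred on their medians. The microRNA host gene Mirg differed by -3.99 (limma adjusted p = 1.38e-05). At the edges, the brighter probe of the paternally expressed Dlk1 averaged 0.05 in TKO and 0.42 in WT, a difference of -0.38. Beyond the last member and Mirg, the probes well above background on all WT arrays had measured differences of -0.30 to 0.24. Of 56 probes in and around the region that were well above background in WT, 32 were at least 2 lower in TKO on the log2 scale, a count that includes the probes that met the rule.

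The second large group was the alpha-defensin cluster of chromosome 8. Between 22194930 and 22805612 lay 9 members, Defa23, Gm15292, Defa3, Gm15299 (now Defa27), Defa2, Gm21498 (now Defa36), Gm6696, Defa26 and Defa-ps1, with bounds of 1.6- to 11.7-fold. Defa1, whose probe has no position in the files, is a further defensin among the members. Related genes can share RNA on such probes, and 4 pairs were near-identical. The probes of Gm15292 and Gm6696 matched at 87.5% of 56 aligned bases and those of Defa-ps1 and Defa26 at 89.4% of 47. Those of Defa2 and Gm21498 matched at 90.0% of 60 and those of Defa1 and Gm15299 at 89.8% of 59. The probes of Defa3 and Defa23 shared no run longer than 6 bases, but whether different probes bind the same defensin RNAs was not tested. The longest runs shared within a pair are shown because they mark RNA that both probes could bind.

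Gm15292 and Gm6696: actgaggccactgatgctggggcctgatg
Defa-ps1 and Defa26: aacacagatgaagagactaatactgagg

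Defa26, the remaining defensin of the fixed list among the members, read -7.14, -6.22 and -6.37 in TKO, against -3.81, -3.55 and -3.83 in WT, at least 1.6-fold lower in TKO. On the array, 13 other genes of the list had no tested probe. Among them, Defa4, Defa21, Defa25 and Defa-rs4 were not well above background on any array, and neither were Lyz2, Reg3g and Mmp7, which Paneth cells also express. Lyz1, lysozyme of Paneth cells, was well above background on 1 TKO array and on 0 WT arrays. Of 7 tested genes of the list, 5 were members. The others were called lower by limma, Defa-rs2 at -1.85 (adjusted p = 0.000456) and Defa-rs7 at -0.21 (adjusted p = 0.0131). The cluster also held 3 bright probes without a gene symbol, which averaged 6.41 to 6.84 in TKO and 6.42 to 6.75 in WT. Another 2 unnamed probes there were 2.56 and 2.86 higher in TKO, well above background on 1 and 2 TKO arrays and on 0 WT arrays. The cluster's chromosome was lower as a whole: tested genes of chromosome 8 had a median difference of -0.25, against -0.03 over all tested genes, and 51.1% of them were called lower. The part of this chromosome-wide difference in the defensin values was not tested. Chromosome 8 held 24 members, 2.11% of its genes on in WT.

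**Figure D3:**
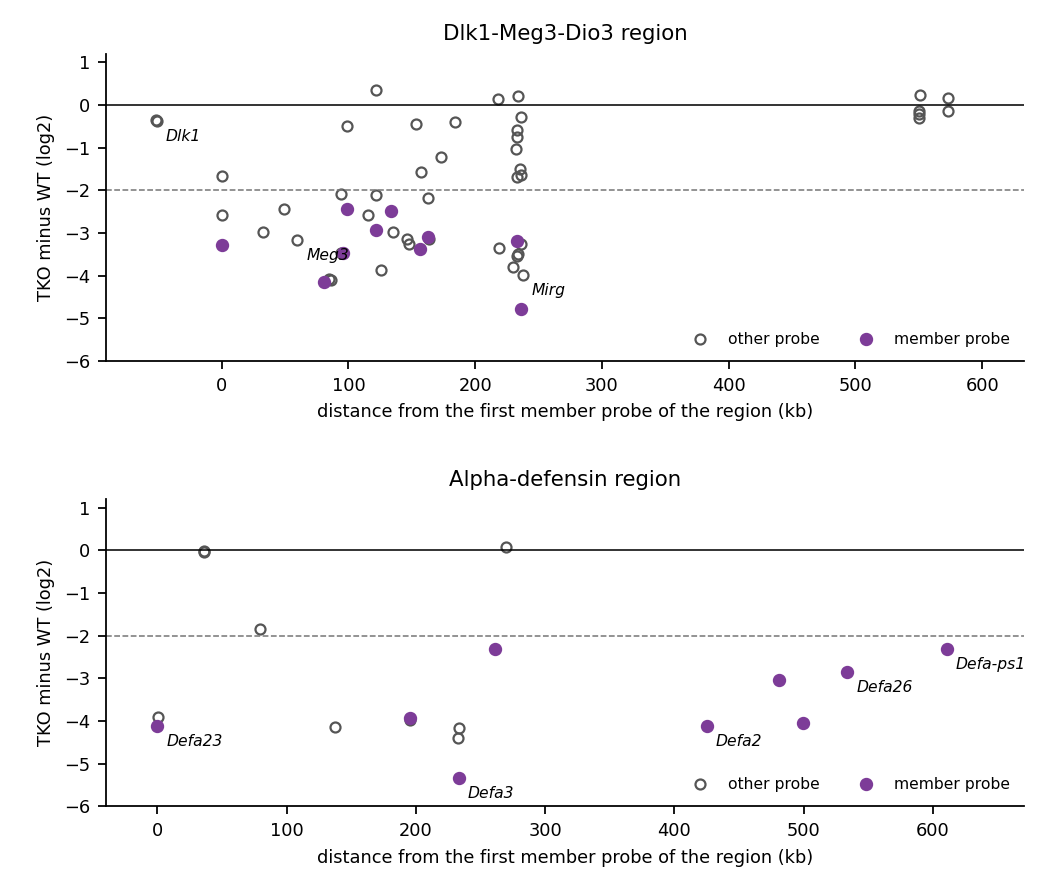
TKO minus WT difference (log2) of probes well above background on all WT arrays, by distance in kb from the first member probe, in the Dlk1-Meg3-Dio3 region (top) and the alpha-defensin cluster (bottom). Filled points are member probes and open points other probes, the dashed line marks -2, and in the top panel 32 of 56 probes lie below it, while Dlk1 at the left and the probes at the right end lie near 0.

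Xlr5a, DXBay18 and Xlr5c formed a group on the X chromosome, between 70352978 and 70530595. Their neighbours of the same family were lower in TKO and still measured. The Xlr5b probe averaged -3.13 in TKO and 0.31 in WT, and the Xlr4b probe -1.86 in TKO and 0.80 in WT. Xlr3a differed by -1.44 (limma adjusted p = 0.000662). Members of this family are closely related copies, so their probes may share RNA. Groups on chromosomes 10 and 16 held 3 intergenic RNAs each, with bounds of 1.9- to 2.05-fold on chromosome 10. BRN1-A, Pou3f3os and an intergenic RNA on chromosome 1 had bounds of 1.25- to 2.1-fold, and the last 2 share 52 bases of probe. On chromosome 19, Plekhs1, Adrb1 (the beta-1 adrenergic receptor) and an intergenic RNA between them, at least 12.9-fold lower in TKO, lay within 238 kb. Adrb1 rests on 1 probe, since its other probe averaged -4.19 in TKO and -4.29 in WT. Dclre1a (-0.94) and Nhlrc2 (-0.40) of the same stretch had smaller measured differences.

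Genes near members were lower more often than tested genes as a whole. Within 250 kb, 1205 tested genes that are not members were found, of which 470 (39.0%) were called lower in TKO and 275 (22.8%) higher, against 31.9% and 28.3% of all tested genes. A fall of at least 2-fold was called in 160 (13.3%), against 6.52% of all. The share called lower was 49.8% of 217 genes within 25 kb, 44.2% of 579 within 100 kb and 36.0% of 3666 within 1000 kb. Without chromosome 8 it was 36.0% of 1016 genes, against 30.8% of all tested genes off that chromosome. On chromosome 8 it was 55.0% of 189, close to the 51.1% of all tested genes of that chromosome. Close neighbours can be parts of 1 transcript, and neither that nor the difference between these shares was tested.

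**Figure D4:**
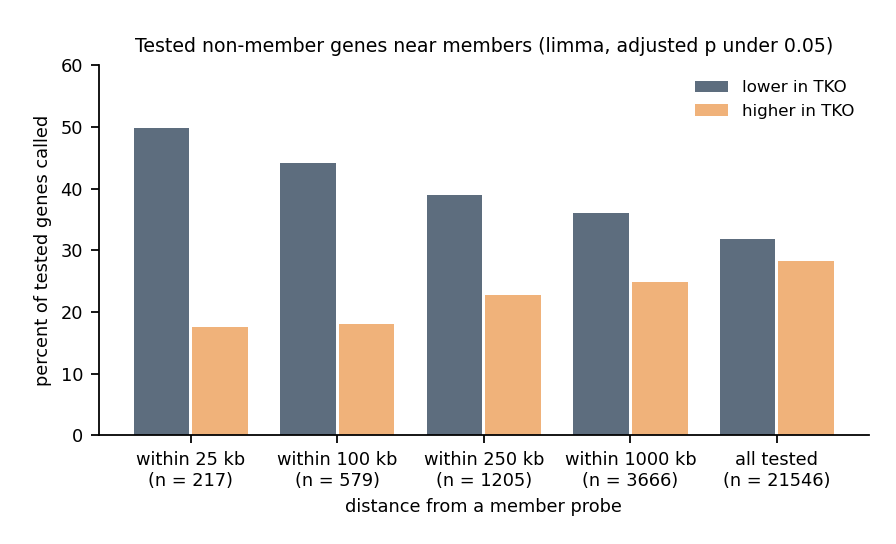
Percent of tested genes that are not members called lower (dark) and higher (light) in TKO by limma, by distance from a member probe, with all tested genes at the right. The share called lower is 49.8% within 25 kb and 36.0% within 1000 kb, against 31.9% of all tested genes.

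Several of the 24 had a strongly changed neighbour. Raet1a, an NKG2D ligand beside H60b, fell to -4.41 in TKO, against -0.01 in WT, a difference of -4.40 ± 0.22 (SE). Dpys, a dihydropyrimidinase 22.1 kb from Dcstamp, fell to -0.76 in TKO, against 2.25 in WT, a difference of -3.01 ± 0.0778 (SE). Odf3, a sperm tail gene 4.63 kb from Scgb1c1, fell by 1.00, and an unnamed transcript 5.79 kb from Pcdhga1 fell by 2.07 on the log2 scale. 4833419G08Rik beside Zbtb7c fell by 1.98. All of these passed limma's test at an adjusted p under 0.05.

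Other neighbours moved little or the other way. Genes called lower by less than 0.5 on the log2 scale were Urah beside Scgb1c1, Metap2 beside Usp44, Dcp2 beside Myot, Elavl1 beside Ccl25, Map2k5 beside Skor1, Zcchc8 and Kntc1 beside Rsrc2, and Nprl2 and Rassf1 beside Zmynd10. Among genes with a name of their own, those called higher were Ehd4 beside Pla2g4e (0.14), Gcnt1 beside Prune2 (0.79), Nell2 beside Tmem117 (0.33) and Gm8580 beside Usp44 (0.23). An intergenic RNA beside Ccl25 (0.60) and unnamed probes beside Nuf2 (0.32) and Zbtb7c (0.29) were called higher too. Rims2 beside Dcstamp (-0.25), Ran beside Gpr133 (-0.08), Pla2g4f beside Pla2g4e (0.10), Gm10765 beside Mall (0.10) and Pdrg1 beside Ccm2l (0.10) did not pass limma's test.

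Other probes of the same gene gave a second reading. Of the members, 90 had a single probe and 114 had others, 314 in all. In 27 members another probe met the rule as well, as for Defa3, whose next brightest probe averaged -5.94 in TKO and -1.54 in WT. In 42 members, 20 of them with a symbol, another probe was well above background on all 3 TKO arrays, so the gene itself was not undetected in TKO. The brightest such probe differed by less than 1 on the log2 scale in 23 of the 42, was lower by 1 or more in 17 and higher by 1 or more in 2.

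Both higher ones carry a symbol. The other Ccl25 probe read 3.01, 2.98 and 2.93 in TKO, against -0.05, 0.01 and -0.03 in WT, which is 3.00 higher in TKO. Usp44 had another probe at 0.19, 0.33 and 0.37 in TKO, against -0.87, -0.72 and -0.90 in WT, which is 1.13 higher in TKO. In these genes 2 probes of 1 gene pointed in opposite directions, and the files do not say which transcript forms they read.

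Nuf2, Rsrc2, Anapc11 (a subunit of the anaphase-promoting complex), Ppara (a nuclear receptor of lipid metabolism), Slc12a5 (a potassium chloride cotransporter), Synpo and Zbtb38 had a brighter probe that was nearly level between the groups. The other Nuf2 probe read 0.97, 0.96 and 0.99 in TKO, against 1.08, 1.07 and 1.24 in WT. A further Nuf2 probe was seen on 1 TKO array and averaged -5.09 in TKO and 0.88 in WT. The brightest probe of Anapc11 averaged 5.73 in TKO and 5.62 in WT. For these genes the rule describes a probed stretch and not the whole gene.

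In a further set both probes were lower in TKO. Xlr5c had another probe at -2.90, -2.74 and -2.66 in TKO, against 0.40, 0.59 and 0.58 in WT. Nkx6-3, a homeobox gene of the gut, had one at -2.83, -2.65 and -3.05 in TKO, against 0.13, 0.22 and 0.07 in WT. Adam23 had one at 0.42, 0.66 and 0.51 in TKO, against 3.35, 3.34 and 3.49 in WT. These genes were still measured in every TKO dish by the second probe. Differences of the second probe in Ccm2l (-2.93), Mras (-2.61), TSIX (-2.54), DXBay18 (-2.34), Ptprv (-1.80), Ulbp1 (-1.66), Ppp3cc (-1.32) and Nxph4 (-1.26) ran the same way.

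**Figure D5:**
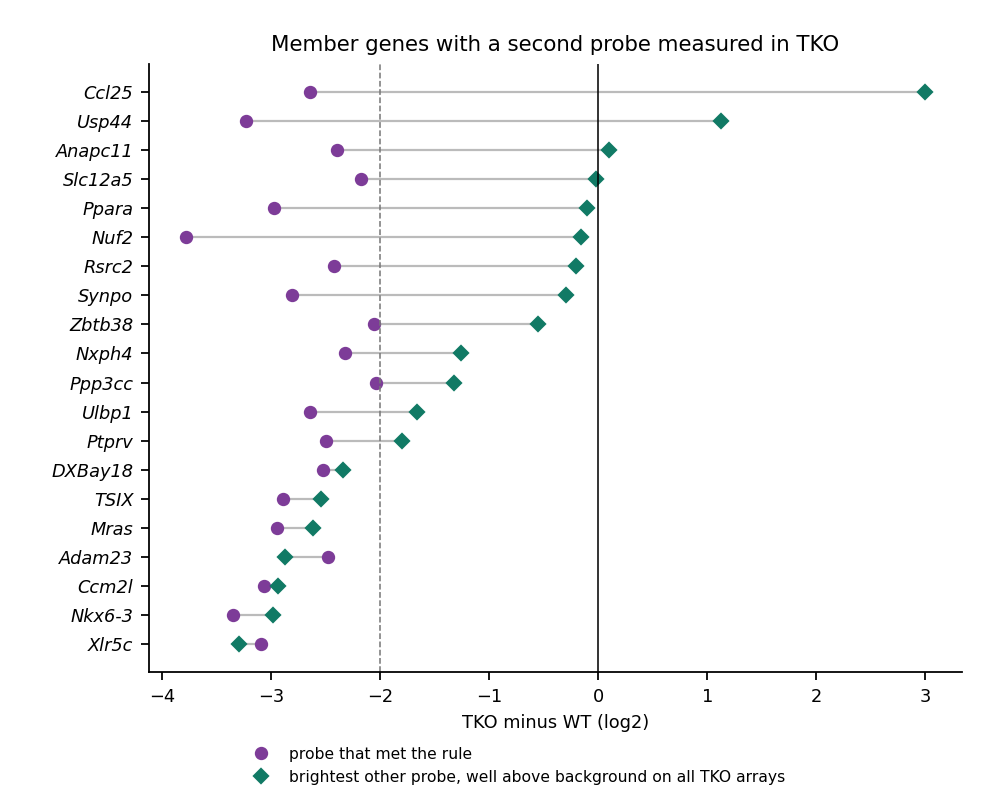
TKO minus WT difference (log2) of the probe that met the rule (circles) and of the brightest other probe well above background on all TKO arrays (diamonds) in the 20 such members with a symbol. The diamonds run from 3.00 for Ccl25 to -3.29 for Xlr5c, and those of 7 genes lie between -0.55 and 0.10.

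The fixed lists of related genes were drawn up with earlier results of these data known, so their counts are not independent support. They are set against 31.9% of all tested genes called lower and 28.3% called higher. All 7 tested NKG2D ligands were lower in TKO, 2 of them members that the rule made lower. The member Ulbp1 read -5.17, -6.39 and -6.53 in TKO, against -3.19, -3.43 and -3.56 in WT, at least 2.02-fold lower in TKO. Besides Raet1a, H60a read -4.12, -5.10 and -4.75 in TKO, against -0.62, -0.67 and -0.67 in WT, and fell by 4.01 (limma adjusted p = 6.12e-05). Raet1b fell by 0.60, Raet1e by 0.58 and Raet1c by 0.45. The last 3 stayed well above background on all TKO arrays, and the ligand genes are similar in sequence, so they may share RNA on these probes.

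The cell fusion and osteoclast list had Dcstamp as its member. Of 6 other tested genes, 3 were called lower and 1 higher. Ocstamp, which acts with Dcstamp in fusion, differed by -0.20 (limma adjusted p = 0.0331) and was well above background on all TKO arrays. Nfatc1, the master transcription factor of osteoclasts, fell by 0.99 (limma adjusted p = 0.0108), Tnfrsf11a, the RANK receptor, by 0.32, and Acp5 was 1.27 higher. In the phospholipase A2 list, Pla2g4e was the member, and of 6 others Pla2g6 was called lower (-0.20) and Pla2g5 (0.42) and Pla2g10 (0.36) higher in limma's fit.

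The sarcomere list had Myot and Tnnc1 as members. Tnnc1, troponin C of slow and cardiac muscle, read -5.04, -6.39 and -6.52 in TKO, against -3.69, -3.89 and -3.76 in WT, at least 1.54-fold lower in TKO. Of 17 others, limma called 5 lower and 10 higher, led by Myom2 (-2.15), Tnnt2 (-1.45) and Tnni1 (-0.96) below and by Tnnc2 (4.06), Myh3 (1.49) and Actn3 (1.32) above. The 6 muscle markers summed to 5.48 to 5.66 on the linear scale in TKO and 2.71 to 2.86 in WT, with Des and Myh3 well above background on all arrays and Myod1 and Myog on none. Their part in the values of Myot and Tnnc1 was not tested. The germline list had Tdrd9, a helicase of the piRNA pathway, as its member. It read -5.15, -6.13 and -5.36 in TKO, against -3.43, -3.60 and -3.22 in WT, at least 1.98-fold lower in TKO. Of 33 others, limma called 18 lower and 10 higher, with Rhox13 (-4.76), Rpl10l (-3.42) and Stag3 (-2.28) the lowest and Cyct (3.64), Dmc1 (2.10) and Sycp1 (1.61) the highest.

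The other lists held no member. Against 31.9% lower and 28.3% higher among all tested genes, each had limma calls both ways. More were higher than lower in the imprinted, interferon and feeder lists. By limma, 11 of 38 tested imprinted genes were lower and 18 higher, and Mest (5.39), Peg3 (4.13) and Usp29 (3.92) led the rises. Of 12 genes of the interferon list, 3 were lower and 7 higher, with Xaf1 (-7.09) the lowest and Ubd (10.08) the highest. Xaf1 was the largest of these falls and was well above background on all TKO arrays, which kept it out of the members. Of 15 synaptic vesicle genes 6 were lower and 4 higher, of 9 Rhox genes 4 were lower and 4 higher, and of 20 feeder fibroblast markers 2 were lower and 12 higher, or 5 higher with arrays centred on their medians.

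Member promoters held fewer CG dinucleotides than those of genes well above background in WT. In every set, each gene counted by its promoter with the most CG. The 77 members with a promoter had a median of 9 CG dinucleotides in 300 bases, against 21 in 11676 genes on in WT and 8 in all 27025 genes of the table. The ratio of observed to expected CG was at least 0.6 in 37.7% of members, against 69.3% of genes on in WT and 38.2% of all. The 265 genes that met the same rule the other way, on in TKO and not in WT (1.37% of 19395 genes on in TKO), had a median of 9 CG as well, over the 139 with a promoter. The 11 members with a bound of at least 4-fold had a median of 23, and 6 of them had a ratio of at least 0.6. Among these 6 were Nuf2 and Ccl25, which another probe measured on all TKO arrays. No test was made of these medians.

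The range was wide. The CpG-rich end held Ccl25, Anapc11 (50), Skor1, Zbtb38 (41), Tmem117 (40), Gpr126 (38) and Mras (36). Of these, Ccl25, Anapc11, Zbtb38 and Mras had another probe well above background on all TKO arrays. At the CpG-poor end, 18 promoters had at most 2 CG, among them Defa2, Defa23, Gm21498, Xlr5c, Prm1, Guca2a, Tnnc1 and Vmn1r44. Defa2 and Gm21498 matched at 90.2% of 285 bases at their best shift, and Defa23 matched Defa2 at 69.5% of 298.

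The search covered 4 motifs on both strands, none of which contains another. TATAAA was found in 12 of 77 member promoters (15.6%, against 7.61% of genes on in WT and 13.8% of all promoters) and CACGTG in 4 (5.19%, against 10.3% and 7.4%). The palindromic NRF1 motif was found in 1, Ppara (1.3%, against 1.93% and 1.01%), and TGACGTCA in 0 (against 3.16% and 1.88%). In 139 promoters of genes that met the rule the other way, the shares were 16.5% for TATAAA and 5.04% for CACGTG. There the NRF1 motif was found in 1.44% and TGACGTCA in 3.6%. In the defensins printed above, TATAAA begins at position -33 of Defa23 and -31 of Defa2, counted from the gene start. Muc1 and 9130204L05Rik (now S100a7l2) hold it at -31 and -29. A match is a stretch of letters and shows no binding.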

How the data were processed

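RNA of 3 TKO and 3 WT dishes was measured on 1-colour Cy3 arrays of 60-base probes. The processed signals are background-subtracted intensity values that the authors deposited as scanner output of Agilent Feature Extraction 11.5.1.1, per the file headers and the submitters' processing notes. The deposited value table of the series holds log2 values of the same arrays and served as an alternative. Flags for signals well above background were read from the deposited files.

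From these, log2 processed signal minus each array's 75th percentile was computed. Control spots and outlier spots were left out and spots of a probe averaged. For tests, each gene kept its brightest probe well above background on at least 3 of 6 arrays, and limma 3.58.1 in R 4.3.3 was fitted to 21546 genes with Benjamini-Hochberg adjustment (threshold 0.05, two-sided). The number of arrays limits the precision. All arrays share 1 slide. Its rows split the TKO arrays, so first-row arrays alone were an alternative. Others were normexp, quantile, median centring, filters, thresholds, windows and leaving out each dish. Simulated data for this comparison had 100 genes changed by 1 and 100 by 2 on the log2 scale. The limma fit recovered 79% and 92% of them, in that order, with 12 false calls. Far more genes were called in the real data, so these rates need not hold there.

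Genes named in full are the 24 members with a symbol and the largest bounds, list members, threshold neighbours, up to 3 genes each way per list, members with another probe measured in TKO, and nearest tested genes within 250 kb. Members and lists were chosen with earlier results of these data known. Results for some named genes are not reported here.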

Additional observations from a re-analysis of the deposited data

How the results depend on the processing

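The count of 204 members became 8 with normexp background correction, which adds an offset of 50 and by construction compresses dim signals, 131 where the brightest of all probes of a gene had to meet the rule, 418 with a threshold of 1 on the log2 scale and 66 with a threshold of 3. It was 249 with quantile normalization, 238 with median centring, 203 with the deposited values, 221 with first-row arrays alone and 210 to 293 with 1 dish left out. The median log2 bound, taken each time over the genes that then met the rule, was 1.16 for the 204 members. It was 2.47 over the 8 genes left with normexp and 1.72 with first-row arrays alone. With 1 dish left out it ran from 1.11 to 1.33. Over 28 named member differences and 11 alternatives, 0 of 308 values changed sign. The rule had chosen these differences to be at least 2 lower on the same arrays, so a kept sign is no support. Beyond the spread between dishes, 56 values moved, 28 of them with normexp, where the highest difference was -0.42. Median centring gave 3867 genes higher in TKO, 169 higher neighbours and 5 higher feeder markers. Neighbours called lower and higher numbered 256 and 104 within 100 kb and 1320 and 909 within 1000 kb. Leaving out chromosome 8 or the Dlk1-Meg3-Dio3 region and the 25 kb window were chosen after seeing the data. Requiring a signal on all 6 arrays left 1 other defensin, 3 NKG2D ligands and 3 sarcomere genes called lower and 3 interferon genes called higher, since fewer genes were tested. Lower calls were 1 other defensin with normexp and 1 feeder marker with no filter. With 1 dish left out, lower calls were 1 to 2 for other defensins, 3 to 5 for sarcomere genes and 1 to 2 for feeder markers, and higher calls were 1 to 2 for cell fusion genes and 4 to 7 for interferon genes. Dishes with the same number did not deviate together (r of -0.069, -0.024 and 0.007), so the values gave no sign of pairing by number. Such values cannot show whether these dishes were handled together. With the replicate number as a block, 6096 genes were called lower and 5566 higher, with 1 other defensin, 3 sarcomere genes and 1 feeder marker lower and 2 cell fusion genes higher. The causes of the other changes were not tested. Signal over background limits the members, whose own probes give only an upper limit in TKO.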

Other observations

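The WT dishes themselves disagreed in 8 members, and the odd dish was not the same one in each. Asic2, an acid-sensing ion channel, read -6.97, -6.07 and -6.21 in TKO, against -3.03, -4.24 and -4.23 in WT, with WT1 the bright one. Pou3f3os read -6.32, -5.81 and -6.43 in TKO, against -4.55, -3.50 and -3.48 in WT, with WT1 the dim one.

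Some members are not separate readings. The Synpo probe and that of an intergenic RNA on chromosome 18 share all 60 bases, and the median GC content of member probes was 43.3%, the same as for genes well above background in WT.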
